A study of Mus musculus with 7 samples.

Results

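The genes described here encode the receptor tyrosine kinase Ret, its 4 co-receptors Gfra1, Gfra2, Gfra3 and Gfra4, and the 4 ligands Gdnf, Nrtn, Artn and Pspn of the glial cell line-derived neurotrophic factor (GDNF) family. They were chosen by gene symbol as 9 of the 19938 genes tested, and each was read by the 1 probe set that the platform annotation pairs with that symbol alone. RNA came from cells of the whole bowel of Wnt1-Cre;R26R-EYFP mouse embryos at embryonic day 17.5, separated by fluorescence-activated cell sorting into 4 EYFP-positive samples, which the labels call ENCDC (enteric neural crest-derived cells), and 3 EYFP-negative samples, called non-ENCDC. Both groups carried the same 2 alleles, so there was no group without Cre or reporter, and the labels do not say how many embryos went into a sample. Cre under Wnt1 control acts in the neural crest, and the reporter then makes the yellow fluorescent protein (YFP) in those cells and their descendants, neurons and glia alike. The aim of the sort was to find ENCDC-enriched genes that may act late in development of the enteric nervous system (ENS).

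A GDNF-family ligand first binds its preferred GFRα protein, which is held on the cell surface by a lipid anchor and has no kinase of its own, and the pair then brings RET molecules together so that the kinase is switched on. GDNF prefers GFRα1, neurturin (the product of Nrtn) GFRα2, artemin (Artn) GFRα3 and persephin (Pspn) GFRα4. In the fetal bowel GDNF made by mesenchyme draws in neural crest cells and keeps them alive and dividing, and loss of RET function leaves the distal bowel without ganglia, as in Hirschsprung disease.

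Gfra1 was higher in YFP-positive cells, while its ligand gene Gdnf had a lower mean there but did not pass the test described below. For each of these 2 genes a window of 250 bases before to 50 after the transcription start is shown, from RefSeq on build GRCm38.p6. The windows were searched on both strands for the TATA box as TATAAA, the GC box as GGGCGG, SOX factor sites as ACAAAG or otherwise AACAAT, homeodomain sites as TAATTA, fork head sites as TAAACA, an E-box of basic helix-loop-helix factors as CAGCTG, the core of a cyclic AMP response element as TGACG, and the CArG box of serum response factor. Capitals mark the matches, none of which overlap.
Gfra1, chr19:58455349-58455648, minus strand: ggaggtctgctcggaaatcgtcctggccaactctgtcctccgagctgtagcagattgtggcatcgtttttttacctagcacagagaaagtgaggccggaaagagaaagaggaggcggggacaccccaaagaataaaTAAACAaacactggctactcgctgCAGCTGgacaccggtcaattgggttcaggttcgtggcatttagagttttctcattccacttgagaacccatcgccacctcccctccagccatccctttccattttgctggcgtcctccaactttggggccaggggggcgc
Gdnf, chr15:7809798-7810097, plus strand: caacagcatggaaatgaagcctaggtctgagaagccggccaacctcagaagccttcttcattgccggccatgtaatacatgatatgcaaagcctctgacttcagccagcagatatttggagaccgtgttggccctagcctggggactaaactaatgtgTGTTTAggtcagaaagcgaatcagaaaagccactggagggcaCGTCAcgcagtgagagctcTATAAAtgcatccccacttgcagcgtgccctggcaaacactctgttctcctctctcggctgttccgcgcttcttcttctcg
The Gfra1 window held the fork head letters and the E-box. The Gdnf window held the TATA box, the fork head letters on the other strand, and the core of the cyclic AMP response element, also on the other strand. A second RefSeq start of Gdnf, with the window chr15:7813477-7813776, held none of these letters. Of all 32851 windows of this length in the same table, 13.62% held TATAAA, 13.44% TAAACA, 16.3% CAGCTG, 20.81% TGACG, 35.66% GGGCGG, 18.71% ACAAAG, 10.72% AACAAT, 5.29% TAATTA and 1.63% the CArG box. Windows of 6 of the 9 genes were searched. A match is a run of letters and says nothing of binding, and the window of a RefSeq start need not be the start used in these cells.

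Some samples differed within their group in ways that bear on these genes. The mean log2 level of 8 pan-neuronal genes was 9.48, 9.49, 9.17 and 8.90 on YFP-positive arrays 1 to 4, against 5.48, 5.11 and 5.48 on the YFP-negative arrays, and all 8 were higher in YFP-positive cells. The mean of 6 enteric glia genes was 8.35, 8.19, 7.85 and 7.89 against 5.14, 4.91 and 5.37, and 5 of 6 were higher, the glial filament gene Gfap being the exception. YFP-positive cells also gave signal for markers of other cells, and most on arrays 3 and 4. The mean of 8 smooth muscle genes was 7.74, 8.41, 9.01 and 9.45 on YFP-positive arrays 1 to 4, against 10.19, 10.15 and 9.75. In YFP-positive cells 4 of these 8 were lower at an adjusted p under 0.05 in limma, and all 8 at an unadjusted p under 0.05. For 8 fibroblast and mesenchyme genes the mean was 7.41, 7.73, 8.34 and 8.64 against 10.22, 10.25 and 9.59, with all 8 lower. The mean of 13 intestinal epithelium genes lay between 7.37 and 8.49 on YFP-positive and between 7.99 and 8.09 on YFP-negative arrays, and 0 of the 13 differed at an adjusted p under 0.05 in limma (1 was lower and 0 higher at an unadjusted p under 0.05). Results are therefore also given without YFP-positive arrays 3 and 4, an alternative chosen after the values were seen.

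Ret and the co-receptor genes Gfra1 and Gfra2 were higher in YFP-positive cells, while Gfra3, Gfra4 and the 4 ligand genes did not pass the test. Levels are log2 values made by the authors with RMA, fold changes are differences of group means, YFP-positive minus YFP-negative, and the test was limma's moderated test at a threshold of 0.05 on Benjamini-Hochberg adjusted p-values, with all 19938 genes in the adjustment. Over all genes 17.5% passed, 8.39% as higher and 9.11% as lower in YFP-positive cells. Of the 5 receptor-side genes 3 were higher and 0 lower, and of the 4 ligand genes 0 passed in either direction. At an unadjusted p under 0.05, 2 ligand genes were lower. Such p-values were common over all genes. As many as 5943 of 19938 had a limma p at or below one of 0.0482, with higher and lower genes not counted apart. That holds for every unadjusted count given in these results. The median log2 fold change was 1.53 over the 5 receptor-side genes, -0.23 over the 4 ligand genes and 0.01 over all genes. Groups did not overlap for the 3 receptor genes and for Gdnf, against 26.9% of all genes. In sorted bulk samples, fewer cells of a type and less RNA per cell cannot be told apart. Nothing in the labels says whether samples are from separate embryos or litters, and p-values then cover only the spread seen here, which may be technical.

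**Figure D1:**
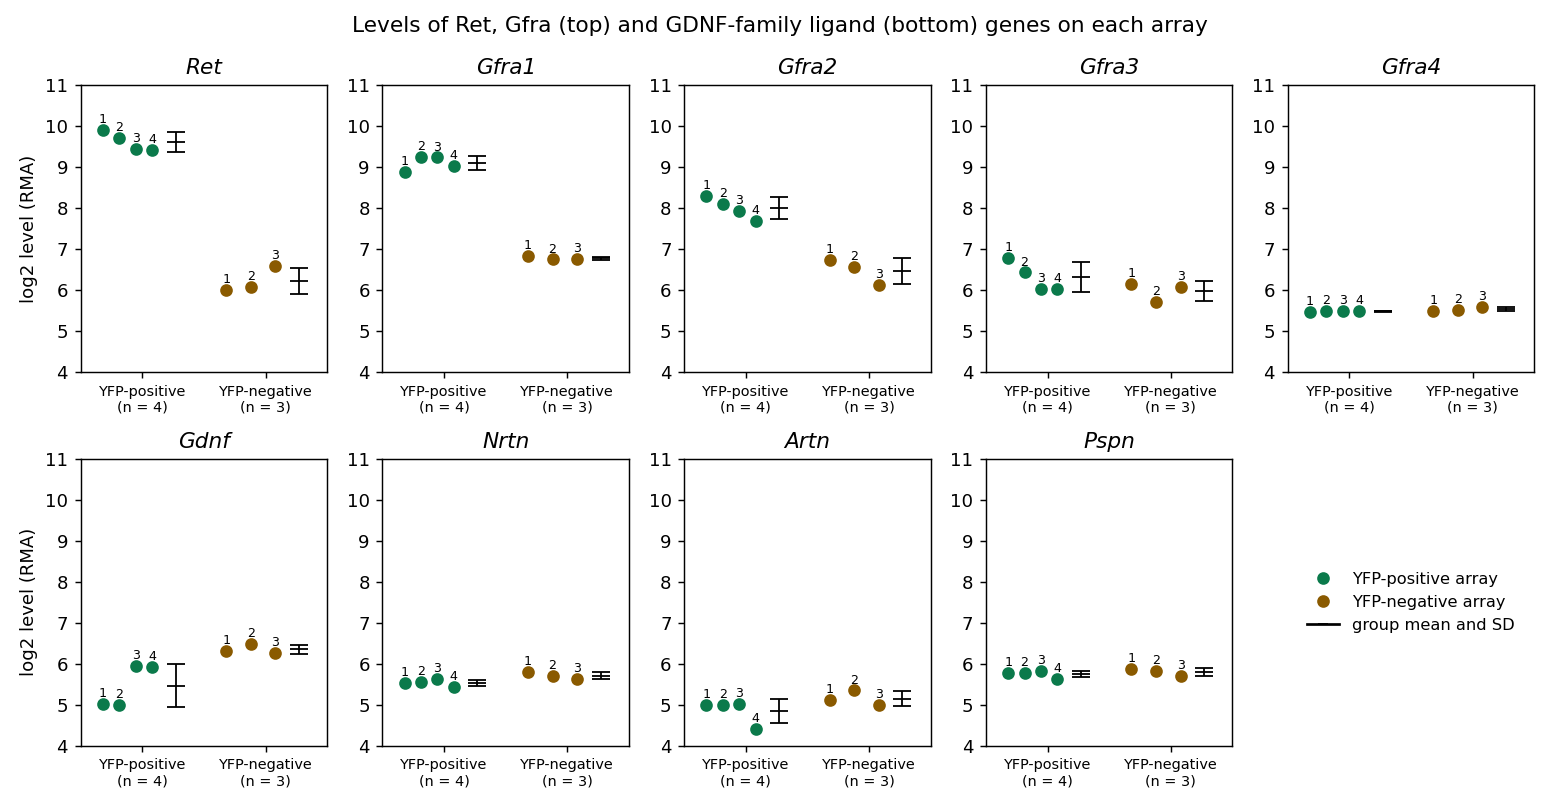
Log2 RMA level (vertical axis) of each receptor-side gene (top row) and ligand gene (bottom row) on the 4 YFP-positive and 3 YFP-negative arrays, with array numbers above the points and the group mean and SD as bars. The groups stand far apart for Ret, Gfra1 and Gfra2, and Gdnf has 2 YFP-positive arrays near 5.0 and 2 near 5.9. Levels of different genes come from different probe sets and are not to be compared with each other.

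Ret, the signalling kinase shared by all 4 ligands, had a log2 level of 9.90, 9.71, 9.43 and 9.41 on YFP-positive arrays 1 to 4, against 5.99, 6.06 and 6.58 on YFP-negative arrays 1 to 3. The lowest YFP-positive array was 2.83 above the highest YFP-negative array. The means were 9.61 ± 0.24 (SD, n = 4) and 6.21 ± 0.32 (SD, n = 3), a 10.6-fold difference (log2 fold change 3.40 ± 0.18 SE, limma adjusted p = 6.67e-05), which placed Ret at rank 43 of 19938 by fold change. Without YFP-positive arrays 3 and 4 the log2 fold change was 3.60 ± 0.21 (limma adjusted p = 0.00206). Within the YFP-positive group Ret was higher on arrays 1 and 2 than on arrays 3 and 4, by 0.39 on average, and so were the pan-neuronal mean, by 0.45, and the enteric glia mean, by 0.40.

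Among the YFP-negative arrays Ret was highest on array 3. The pan-neuronal mean of that array, 5.48, was the same as that of array 1, and its glial mean of 5.37 was the highest of the 3. The mean of 8 myeloid genes was 8.85 there, against 8.82 and 9.02 on YFP-negative arrays 1 and 2, and so was highest on array 2. Ptprc, 1 of these 8 genes and named after its values were seen, was highest on array 3. It stood at 8.77, 8.99 and 9.33 on YFP-negative arrays 1 to 3. The list was mixed, as Itgam and Tyrobp were also highest on array 3, but Cd68, Csf1r, Lyz2 and Cd14 on array 2 and Aif1 on array 1. Cd14 (5.42) and Aif1 (8.06) were lowest on array 3. The part of neural or blood cells in the YFP-negative Ret level was not tested.

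Gfra1, the co-receptor of GDNF, varied less within each group than the other 2 higher receptor genes, Ret and Gfra2. Its log2 level was 8.88, 9.24, 9.23 and 9.02 on YFP-positive arrays 1 to 4, against 6.82, 6.74 and 6.76 on the YFP-negative arrays. The YFP-positive arrays spanned 0.36 and the YFP-negative arrays 0.07, with a gap of 2.06 between the groups. The fold change was 4.98 (log2 fold change 2.32 ± 0.10 SE, limma adjusted p = 3.41e-05), with means of 9.09 ± 0.17 (SD, n = 4) and 6.78 ± 0.04 (SD, n = 3). Unlike Ret, its lowest YFP-positive value was on array 1, and the mean of arrays 1 and 2 was 0.07 below that of arrays 3 and 4. Without YFP-positive arrays 3 and 4 the log2 fold change was 2.28 ± 0.12 (limma adjusted p = 0.00183). Gfra1 is known to be made by bowel mesenchyme as well as by ENS cells, and the part of mesenchyme in its levels here was not tested. RefSeq lists 2 gene models that overlap Gfra1, Gm10007 and Gm46650, and 1, Gm34588, that overlaps Gfra2, and whether the probe sets pick them up was not checked.

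Gfra2, the co-receptor of neurturin and a gene of enteric neurons after birth, had a log2 level of 8.29, 8.09, 7.93 and 7.68 on YFP-positive arrays 1 to 4, against 6.74, 6.55 and 6.12 on YFP-negative arrays 1 to 3. The groups were 0.95 apart at their closest, and each group spanned about as much as the other, 0.61 and 0.62. The means were 7.999 ± 0.26 (SD, n = 4) and 6.47 ± 0.32 (SD, n = 3), a 2.88-fold difference (log2 fold change 1.53 ± 0.19 SE, limma adjusted p = 0.00171). As for Ret, arrays 1 and 2 stood above arrays 3 and 4, by 0.39. Without arrays 3 and 4 the log2 fold change was 1.72 ± 0.21 (limma adjusted p = 0.0117).

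**Figure D2:**
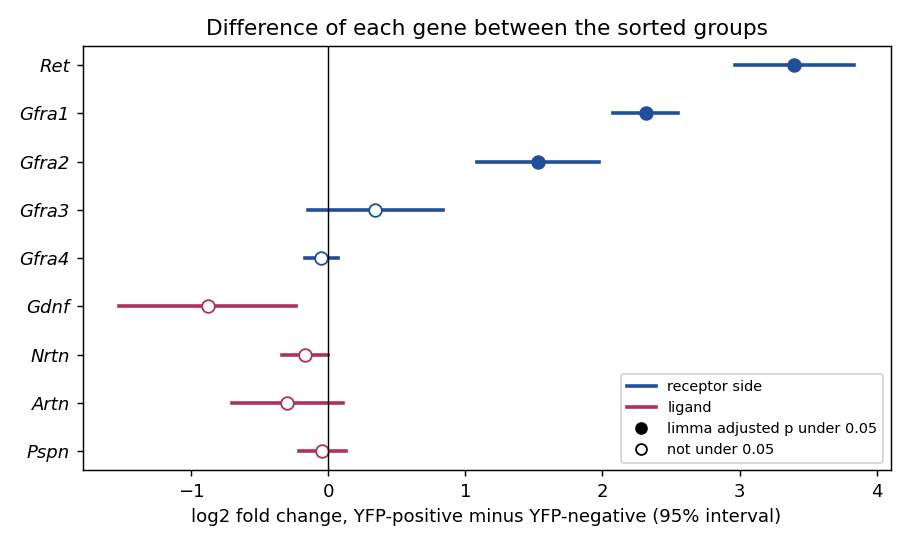
Log2 fold change of each gene, YFP-positive minus YFP-negative (points), with the 95% interval of the limma fit (lines). Ret, Gfra1 and Gfra2 (filled points) have intervals that lie wholly above 1, while the 4 ligand genes and Gfra4 have values below 0 and open points.

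The 95% intervals of the log2 fold change, not adjusted for the number of genes, were 2.97 to 3.83 for Ret, 2.08 to 2.55 for Gfra1 and 1.08 to 1.97 for Gfra2. These intervals do not overlap, but probe sets can differ in how far they compress a difference, and the difference between the genes was not tested.

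Gfra3, the co-receptor of artemin, which acts in sympathetic and sensory neurons, did not pass. Its log2 level was 6.77, 6.43, 6.03 and 6.03 on YFP-positive arrays 1 to 4, against 6.15, 5.70 and 6.07 on the YFP-negative arrays. Array 1, and less so array 2, lay above all YFP-negative arrays, while arrays 3 and 4 had the same value to 6 decimals and lay within the YFP-negative range. The log2 fold change was 0.34 ± 0.21 SE (95% interval -0.15 to 0.83, limma adjusted p = 0.333), and 0.63 ± 0.19 SE (adjusted p = 0.111) without arrays 3 and 4.

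Array 1 was also the highest for the noradrenaline and dopamine synthesis genes Dbh and Th, which were chosen after their values were seen. Dbh stood at 7.10 on that array, 5.71, 5.32 and 5.55 on the other YFP-positive arrays, and 4.39, 4.74 and 4.26 on the YFP-negative arrays. Th stood at 6.69 on array 1, at 4.86, 5.02 and 4.64 on the other YFP-positive arrays, and at 4.71, 4.91 and 4.86 on the YFP-negative arrays. Catecholaminergic cells of neural crest origin would carry these genes, and their part in the Gfra3 level of array 1 was not tested.

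Gfra4, the co-receptor of persephin, showed almost no spread at all. Its log2 level lay between 5.46 and 5.49 on the YFP-positive arrays and between 5.49 and 5.58 on the YFP-negative arrays, and YFP-positive array 3 and YFP-negative array 1 shared a value to 6 decimals. The log2 fold change was -0.05 ± 0.05 SE (95% interval -0.17 to 0.07, limma adjusted p = 0.567). With no detection calls in the table, a level like this cannot be told from background.

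On the ligand side Gdnf had the largest difference. Its log2 level was 5.02, 5.005, 5.94 and 5.92 on YFP-positive arrays 1 to 4, against 6.31, 6.48 and 6.26 on the YFP-negative arrays. All 4 YFP-positive arrays lay below the lowest YFP-negative array, by at least 0.32, but they fell into 2 pairs 0.92 apart. The means were 5.47 ± 0.53 (SD, n = 4) and 6.35 ± 0.11 (SD, n = 3), and Gdnf did not pass (log2 fold change -0.88 ± 0.27 SE, 95% interval -1.52 to -0.23, limma adjusted p = 0.0717).

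The call of Gdnf depended on arrays 3 and 4. Without them the log2 fold change was -1.34 ± 0.09 SE, a level 2.53-fold lower in YFP-positive cells, and it passed (limma adjusted p = 0.00247). With all arrays it was 1.84-fold lower. The levels on YFP-positive arrays 1 and 2 lay below the median of all genes on those arrays, 5.87 on each, and without detection calls they cannot be told from background, which limits both folds. YFP-positive arrays 3 and 4 had the higher mean of the smooth muscle list, 1.15 above that of arrays 1 and 2. The fibroblast and mesenchyme mean was 0.92 above and the intestinal epithelium mean 0.83 above. Also higher there were the myeloid mean, by 0.70, and the endothelium mean, by 0.29. The means for interstitial cells of Cajal and for mesothelium were each higher by 0.56. Leaving out the 2 arrays richest in such markers itself lowers the YFP-positive mean of those markers, and the part of other cells in the Gdnf level was not tested. Gdnf also passed when the dimmest genes, 1 in 3 by mean level, were left out (limma adjusted p = 0.0477), where fewer genes enter the adjustment.

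**Figure D3:**
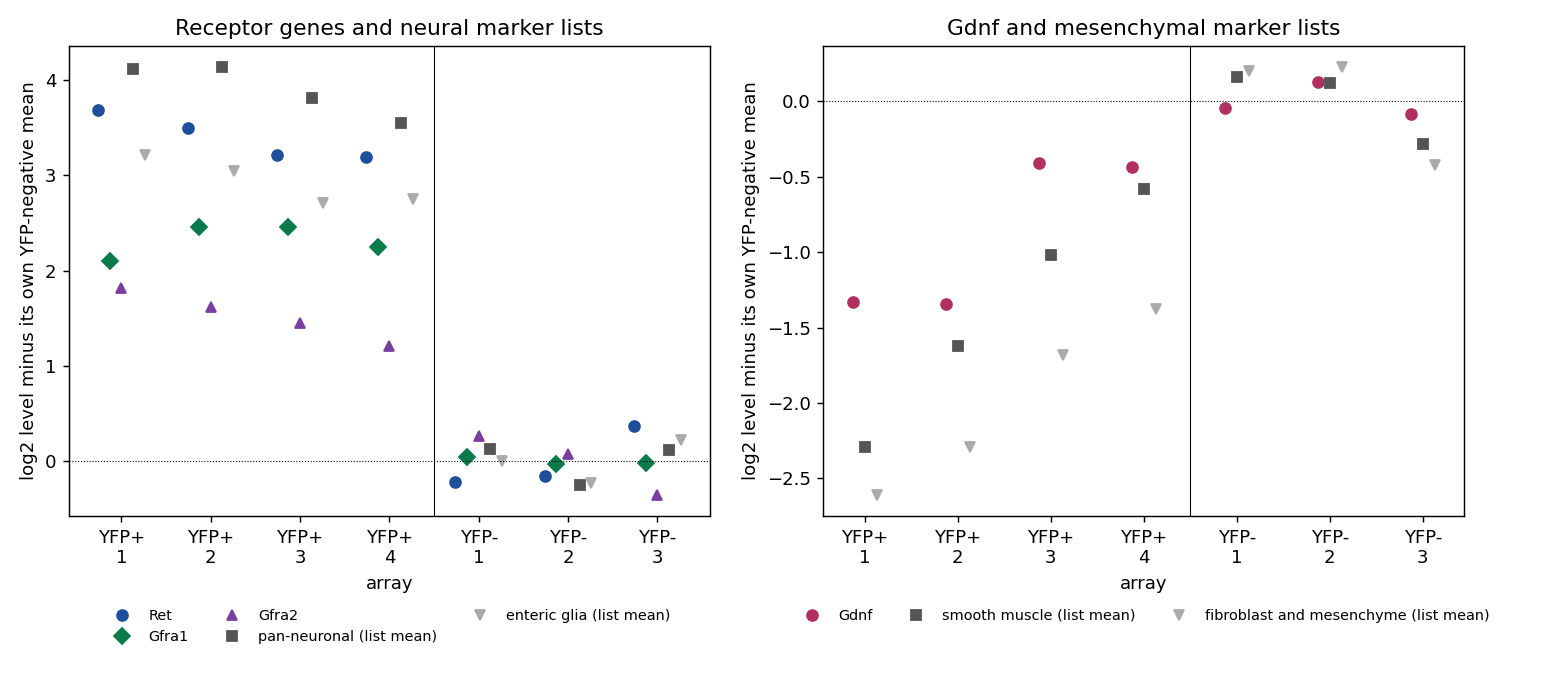
Log2 level on each array minus the mean of the same gene or list over the 3 YFP-negative arrays, for Ret, Gfra1 and Gfra2 beside the means of neural marker lists (left) and for Gdnf beside the means of mesenchymal marker lists (right). On YFP-positive arrays 3 and 4 Gdnf is 0.41 and 0.43 below its YFP-negative mean, against 1.33 and 1.34 below on arrays 1 and 2. The mesenchymal lists are also less far below on arrays 3 and 4. Other lists of non-neural cells, not drawn, are higher on arrays 3 and 4 than on arrays 1 and 2 too.

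Nrtn, which encodes neurturin, had a log2 level of 5.54, 5.55, 5.62 and 5.43 on YFP-positive arrays 1 to 4, against 5.79, 5.70 and 5.62 on the YFP-negative arrays. The groups met at a value shared to 6 decimals by YFP-positive array 3 and YFP-negative array 3. The log2 fold change was -0.17 ± 0.07 SE (95% interval -0.34 to -0.0039, limma adjusted p = 0.157). Its co-receptor gene Gfra2 was higher in YFP-positive cells, as given above.

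Artn, which encodes artemin, a factor made along blood vessels, had a log2 level of 4.99, 4.99, 5.02 and 4.41 on YFP-positive arrays 1 to 4, against 5.11, 5.35 and 4.99 on the YFP-negative arrays. Only YFP-positive array 4 stood clear of the others. The log2 fold change was -0.30 ± 0.17 SE (95% interval -0.70 to 0.11, limma adjusted p = 0.306). Artn was the only one of the 9 genes among the dimmest 1 in 3 of all genes by mean level, so 8 of 9 passed that filter on low values.

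Pspn, which encodes persephin, had a log2 level of 5.78, 5.78, 5.82 and 5.64 on YFP-positive arrays 1 to 4, against 5.88, 5.82 and 5.69 on the YFP-negative arrays. The groups overlapped almost wholly. The log2 fold change was -0.04 ± 0.07 SE (95% interval -0.21 to 0.13, limma adjusted p = 0.74). RefSeq lists Alkbh7 as overlapping Pspn, so the probe set may carry signal of both. Gfra3, Gfra4, Nrtn, Artn and Pspn each had 2 arrays with a value in common to 6 decimals, whereas Ret, Gfra1, Gfra2 and Gdnf had none.

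The genes with profiles most like that of Ret over the 7 arrays, after each gene was centred on its own mean, were Kif21a, Rtn1, Crmp1, Car12 and Syt11. Their root mean square difference from Ret was 0.08 to 0.14 on the log2 scale. Kif21a encodes a kinesin motor, Crmp1 a collapsin response mediator of axon guidance, and Syt11 a synaptotagmin. Those most like Gdnf were Tmem37, Mylk, Spint1, Ptprk and Igf2r, at 0.12 to 0.13. Mylk encodes the myosin light chain kinase of smooth muscle and Spint1 a protease inhibitor of epithelia. Nearness in 7 arrays of 2 groups rests mainly on the size of the group difference.

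Transcription factors tied to Ret expression were mostly higher in YFP-positive cells. Of 8 measured, 5 were higher and 0 lower by limma (0 lower also at an unadjusted p under 0.05). The median log2 fold change over the 8 was 1.61. The share higher was 62.5%, against 8.39% of all genes, and the share lower was 0%, against 9.11%. The homeobox gene Hoxb5, a regulator of Ret in ENS precursors, stood at 9.93, 10.08, 9.91 and 9.68 on YFP-positive arrays 1 to 4, against 6.57, 6.64 and 6.67 on the YFP-negative arrays (log2 fold change 3.27 ± 0.10 SE). Phox2a, a homeobox gene of autonomic neurons, stood at 8.01, 8.10, 7.53 and 7.42 on YFP-positive arrays 1 to 4, against 4.83 to 5.26 on the YFP-negative arrays (2.74 ± 0.20). Sox10, a factor of crest progenitors and glia, stood at 8.33, 8.23, 7.86 and 7.90 against 5.33, 5.59 and 5.77 (2.52 ± 0.15). Hoxb5, Phox2a and Sox10, like Ret, were higher on arrays 1 and 2 than on arrays 3 and 4, though for Hoxb5 arrays 1 and 3 were close. The other 2 higher genes, Hand2 (1.97 ± 0.14), a basic helix-loop-helix factor gene of enteric neurons, and the homeobox gene Tlx2 (1.25 ± 0.22, log2 fold change ± SE), were named after their values were seen. Tlx2 had the same order, at 6.77, 6.57, 6.17 and 6.08 on YFP-positive arrays 1 to 4. Hand2 did not, at 8.52, 8.64, 8.57 and 8.28.

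Of 29 measured adaptors and proximal effectors of Ret, 6 were higher by limma and 1 was lower, and the median log2 fold change was 0.10. The share higher was 20.69%, against 8.39% of all genes, and the share lower was 3.45%, against 9.11%. At an unadjusted limma p under 0.05, 11 were higher and 5 lower. The docking protein gene Gab1, which links receptor kinases to phosphoinositide 3-kinase, was higher by 0.98 ± 0.12, with 8.82, 8.57, 8.33 and 8.51 on YFP-positive arrays 1 to 4 against 7.68, 7.62 and 7.44 on the YFP-negative arrays. The neuronal adaptor genes Shc2 (0.83 ± 0.16) and Shc3 (0.73 ± 0.16) were higher too, while Shc1, the widely expressed member of that family, had a value of -0.31 ± 0.10 and did not pass (log2 fold change ± SE). Shc1 was chosen after its values were seen. Dok2, an adaptor of blood cells, was lower by limma (log2 fold change -1.18 ± 0.22). The mean of 8 myeloid genes was 5.24 to 6.09 on YFP-positive and 8.82 to 9.02 on YFP-negative arrays, and its part in the Dok2 value was not tested. Leaving out YFP-negative array 2, or YFP-positive arrays 3 and 4 together, brought the 6 higher genes down to 3, and leaving out YFP-negative array 1 or 3 brought the lower genes to 2.

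Other receptors, matrix genes and modulators of GDNF-family signalling held both higher and lower genes. Of 13 measured, 3 were higher and 2 lower by limma, and the median log2 fold change was -0.11. The share higher was 23.08%, against 8.39% of all genes, and the share lower was 15.38%, against 9.11%. Islr2, whose product binds Ret in growing axons, was higher by 1.66 ± 0.14 SE. Ncam1, which encodes a cell adhesion molecule that can bind GDNF with GFRα1 in place of RET, stood at 9.27, 9.22, 9.12 and 9.32 on YFP-positive arrays 1 to 4, against 7.95, 8.18 and 7.76 on the YFP-negative arrays (log2 fold change 1.27 ± 0.11 SE, limma adjusted p = 0.000327). Sdc3, a heparan sulfate proteoglycan that binds matrix-held GDNF, was higher by 0.49 ± 0.11 SE. Its call was lost without any one array except YFP-positive array 4 and YFP-negative array 2, and without YFP-positive arrays 3 and 4 (adjusted p of 0.0943).

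The 2 lower genes of that group were Sulf1, a sulfatase that trims heparan sulfate (-1.58 ± 0.33), and Gas1, which encodes a GFRα-like surface protein (-0.42 ± 0.09, log2 fold change ± SE). Sulf1 stood at 6.21, 6.95, 6.97 and 7.38 on YFP-positive arrays 1 to 4, against 9.01, 8.45 and 7.93 on the YFP-negative arrays, and was thus lowest on the array with the lowest mesenchymal mean. Leaving out YFP-positive array 2 brought the lower genes to 1, Gas1, as Sulf1 lost its call (limma adjusted p = 0.0521). Leaving out YFP-negative array 1 did the same (Sulf1 at 0.0586). With both YFP-positive arrays 3 and 4 left out, Sulf1 (0.0521) and Gas1 (0.0599) both missed the threshold. The 1 lower gene of the group was then Lrig1 (0.0335). Lower genes numbered 0 when YFP-negative array 2 was left out and 4 when YFP-negative array 3 was left out. Gfral, the hindbrain receptor of the same family, had a level between 2.83 and 3.42 on all YFP-positive arrays and 3.17 on all 3 YFP-negative arrays. Kif26a, a kinesin-like inhibitor of Ret signalling in the ENS, missed the threshold at 0.23 ± 0.07 (limma adjusted p = 0.0808).

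**Figure D4:**
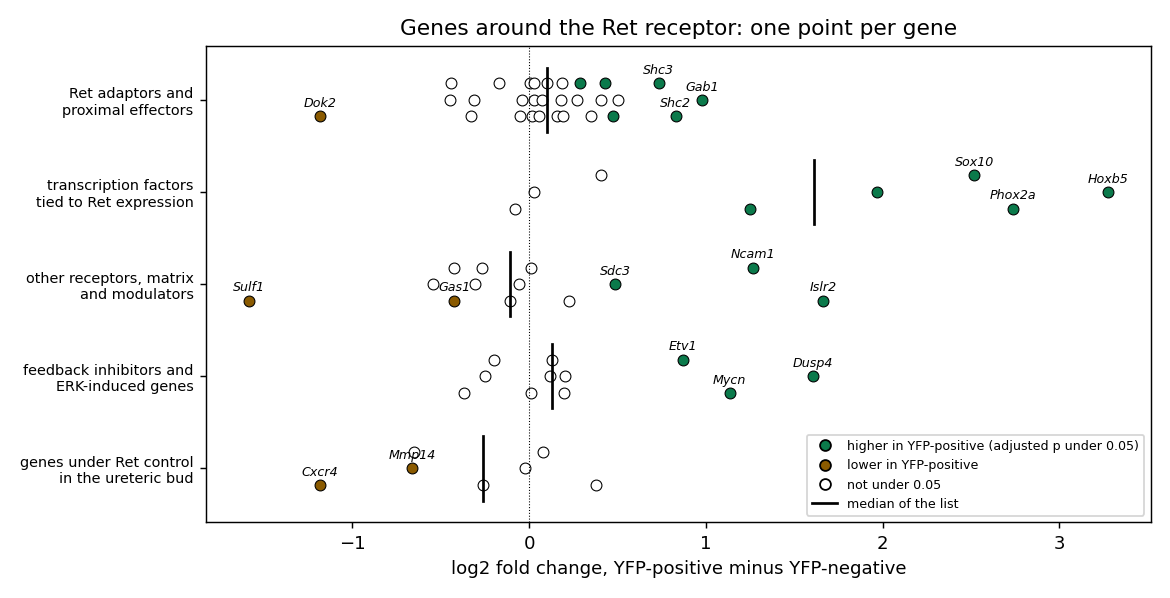
Log2 fold change, YFP-positive minus YFP-negative, of each gene in 5 groups around the Ret receptor (1 point per gene), with the median of each group as a vertical bar. The transcription factors have the highest median, 1.61, and the other groups have medians between -0.26 and 0.13.

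Feedback inhibitors and genes induced by the ERK kinases, which act downstream of Ret and of other receptor kinases, included 3 higher genes. Of 11 measured, 3 were higher and 0 lower by limma (2 lower at an unadjusted p under 0.05), and their median log2 fold change was 0.13. The share higher was 27.27%, against 8.39% of all genes, and the share lower was 0%, against 9.11%. Dusp4, an ERK phosphatase, was higher by 1.61 ± 0.23 SE, with 6.80, 7.42, 7.36 and 7.07 on YFP-positive arrays 1 to 4 against 5.83, 5.76 and 5.08 on the YFP-negative arrays. The transcription factor genes Mycn (1.13 ± 0.16) and Etv1 (0.87 ± 0.10, log2 fold change ± SE) were higher as well. Etv1 is also a gene of interstitial cells of Cajal, whose other listed markers Kit (-2.35 ± 0.38) and Ano1 (-1.52 ± 0.25) were lower. Spry2, an inhibitor of receptor kinase signalling that limits the response to GDNF in the ENS, had a value of 0.13 ± 0.18 (limma adjusted p = 0.702). The count of lower genes was 1 without YFP-negative array 1.

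Among genes that Ret controls in the ureteric bud of the mouse kidney, 2 were lower in YFP-positive cells. Of 7 measured, 0 were higher by limma (1 at an unadjusted p under 0.05) and 2 lower, and the median log2 fold change was -0.26. The share lower was 28.57%, against 9.11% of all genes, and the share higher was 0%, against 8.39%, in a group of only 7 genes. The chemokine receptor gene Cxcr4, which leukocytes also carry, was lower by limma (-1.18 ± 0.18), as was the matrix metalloproteinase gene Mmp14 (-0.66 ± 0.13, log2 fold change ± SE). The count of lower genes was 1 without YFP-positive array 2, YFP-negative array 1, YFP-negative array 2, or YFP-positive arrays 3 and 4. The ETS factor genes Etv4 (0.38 ± 0.15) and Etv5 (0.08 ± 0.16), which transmit the Ret signal in the ureteric bud, did not pass. Etv5 stood at 7.72, 8.25, 7.78 and 7.96 on YFP-positive arrays 1 to 4, against 7.89, 8.04 and 7.61 on the YFP-negative arrays, so the groups overlapped.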

How the data were processed

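The 7 microarrays, 4 YFP-positive and 3 YFP-negative, were analysed together. Per the labels' protocols, RNA was extracted with Trizol and amplified with a whole-transcriptome kit for small RNA amounts. Values deposited by the authors are log2 levels per probe set, and the submitters' processing notes name RMA and Affymetrix Expression Console, with no version. The genome build was not given in the sources used here. RMA and amplification can both compress differences, and the number of arrays limits precision.

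Of 35556 probe sets, 21789 had 1 gene symbol, 1621 had several and 12146 were not listed. Entrez identifiers matched the GRCm38.p6 RefSeq table for 21698, with 0 symbols differing. Where a gene had more than 1 probe set (999 genes), the brightest by mean over the arrays was kept, giving 19938 genes. All 7 sample columns were matched, with 0 left unmatched.

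Groups were compared with limma 3.58.1 (lmFit and eBayes, group as the only term) in R 4.3.3, with tables and figures in Python 3.11.15, pandas 2.3.3, numpy 2.4.6 and matplotlib 3.10.9. The fit was tested on simulated data. The members, gene lists and tests were chosen with earlier results of these data known. Named list genes are up to 3 in each direction with the largest change past the threshold and a short list named whatever its values. Alternatives are given in the closing section. Whether the replicate numbers pair the samples could not be told. Correlations of same-numbered deviations from the group means were 0.0084, -0.0862 and 0.038, against -0.1628 to 0.2682 for pairs with different numbers. With so few arrays in each group these values cannot show whether samples were paired.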

Additional observations from a re-analysis of the deposited data

Results flagged for a closer look

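Artn on YFP-positive array 4 had a log2 level of 4.41, against 4.99 to 5.02 on the other 3 YFP-positive arrays. Its gap to the nearest array was 0.943 of the group's range, above Dixon's 95% critical value for 4 samples. Of 31 genes examined in the YFP-positive group, 1 stood out in this way, and chance flags about 1 in 20 groups. Without that array the log2 fold change of Artn was -0.15, and it did not pass with or without it.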

How the results depend on the processing

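Ret, Gfra1 and Gfra2 kept their direction and their call in all 16 alternatives run, and Gfra3, Gfra4, Nrtn and Pspn kept their direction and stayed above the threshold in all 16, as did Artn in the 15 it could enter. Gdnf stayed lower in sign in all 16 and passed in 2 of them, at -0.88 with the dimmest genes left out (limma adjusted p = 0.0477, from fewer genes tested) and at -1.34 without YFP-positive arrays 3 and 4. With 1 array left out at a time the log2 fold change lay between 3.29 and 3.58 for Ret, 2.27 and 2.39 for Gfra1, 1.35 and 1.66 for Gfra2, and -1.04 and -0.72 for Gdnf, whose adjusted p lay between 0.0551 and 0.206. Over all genes 1202 to 1452 were then higher and 1166 to 1890 lower, with 1166 when YFP-negative array 2 was left out. With 1 array left out, transcription factors had 5 to 6 higher and 0 lower genes, feedback genes 3 higher in each fit, Ret adaptors had 3 to 7 higher and 1 to 2 lower genes, modulators 0 to 4 lower, feedback genes 0 to 1 lower and ureteric bud genes 1 to 2 lower. Without YFP-positive arrays 3 and 4, adaptors had 3 higher, modulators 1 lower (Lrig1) and ureteric bud genes 1 lower. Over all genes 1292 were then higher and 1392 lower. Array weights gave 3 lower adaptors and 4 lower modulators, and over all genes 1901 higher and 2275 lower. A test against a 1.5-fold difference, which asks for more by construction, called 469 higher and 558 lower genes over all, 0 adaptors in either direction, 0 lower modulators, 1 higher feedback gene and 0 lower ureteric bud genes. With the replicate block, adaptors had 3 higher, modulators 0 lower and ureteric bud genes 1 higher and 1 lower, and over all genes 1245 were higher and 1264 lower. Whether the numbers pair the samples could not be told. Under the block Ret stood at 3.47, Gfra1 at 2.34, Gfra2 at 1.63 and Gdnf at -1.03. Beyond what is said here, the cause of these changes was not tested. With no detection calls, signal over background limits what can be said of Gfra4, Nrtn, Artn and Pspn, and of Gdnf on YFP-positive arrays 1 and 2.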
